A study of Mus musculus with 6 samples.

Results

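Genes of the AMP-activated protein kinase (AMPK) and of the TSC-mTOR axis that it controls were compared between hearts of wild type and irisin knockout mice. The 10 genes were fixed by name and found through the gene symbols of the array annotation: the AMPK subunits Prkaa1, Prkaa2, Prkab1, Prkab2, Prkag1 and Prkag2, the upstream kinase Stk11, and Tsc1, Tsc2 and Mtor. All 10 had a row, 1 each, of 23185 rows with 1 gene symbol. The data are 6 Affymetrix arrays of total RNA, 3 labelled wild type and 3 labelled irisin knockout. Both groups were FVB mice, an inbred albino strain, and had eaten standard chow with 10% fat for 24 weeks. The wild type animals were littermates of the knockouts. The knockout was made by injecting FVB zygotes with Cas9 mRNA and 5 guide RNAs, so the change is carried in the germ line and is not limited to the heart. How many founders the line had, and the sex and exact age of the animals, are unknown here.

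AMPK is a sensor of cellular energy built from a catalytic alpha, a scaffolding beta and a nucleotide-binding gamma subunit. When AMP and ADP rise, LKB1 (encoded by Stk11) phosphorylates the alpha subunit, and the active kinase turns on glucose uptake and fatty acid oxidation and holds back anabolic work. One route is through the TSC complex of TSC1, TSC2 and TBC1D7, which inactivates the small GTPase RHEB and so lowers the activity of mTOR complex 1, the kinase that drives protein synthesis. In adult heart muscle the alpha2 catalytic subunit carries most AMPK activity, and it is known for its role in ischaemia. The arrays measured RNA only, so neither phosphorylation nor kinase activity is shown by any value here.

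Values are the deposited log2 summaries, 1 per gene and array. Array medians lay between 2.23 and 2.36, and the 3 arrays per group limit the precision. Whether the 3 arrays of a group come from 3 animals is not stated outright; should some share an animal, the p-values cover array-to-array variation that may be only technical. The targeted gene Fndc5, the precursor of irisin, was 8.42, 8.40 and 7.83 in wild type replicates 1 to 3 and 7.68, 5.49 and 5.45 in knockout replicates 1 to 3, a difference of -2.01 (SE 0.54; limma adjusted p = 0.0359). The array labelled knockout 1 lay near the wild type values, and without it the difference was -2.75 (limma adjusted p = 0.00217). That was the only one of the 6 fits without 1 array in which Fndc5 passed; the others gave adjusted p from 0.0617 to 0.133, and limma's robust variance model gave 0.0635. The calls of Prkaa2 and Tsc2 are therefore also given without knockout replicate 1. Which part of Fndc5 was deleted, and so whether its probes lie in it, is not known here. All 10 cardiomyocyte markers were above the array medians, with a mean of 10.94 to 11.27 on wild type and 11.20 to 11.33 on knockout arrays; 2 of them were higher and 0 lower past the threshold used below. Markers of other cells were measured too, and the labels disagree on the material. Source and cell type name cardiomyocytes, while the sample descriptions name myocardium. The 6 smooth muscle markers averaged 6.59 to 8.58 in wild type and 4.96 to 5.43 in the knockout (5 of 6 lower), and the 8 fibroblast markers 6.80 to 7.60 and 6.08 to 6.33 (4 of 8 lower). The 8 endothelial markers averaged 7.21 to 7.26 against 6.55 to 6.87 (2 lower), the 5 pericyte markers 6.48 to 6.86 against 7.28 to 7.45 (3 higher), and the 6 macrophage markers 4.13 to 4.41 against 3.98 to 4.16 (1 lower). The 8 skeletal muscle markers averaged 2.32 to 2.54 in wild type and 2.33 to 2.43 in the knockout, with 0 past the threshold and 5 of 8, the fast myosin genes Myh1, Myh2 and Myh4 among them, below the median of every array. The part of such cells in the results below was not tested, and in bulk RNA fewer cells of a type cannot be told apart from less RNA per cell.

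Of the 10 genes, 4 rose in the knockout, 0 fell and 6 did not pass the test. Those that rose were the catalytic alpha2 gene Prkaa2, both scaffold genes Prkab1 and Prkab2, and the TSC subunit gene Tsc2. Genes called in either direction at an adjusted p below 0.05 made up 16.6% of all genes tested in the same limma fit, 10.4% higher and 6.18% lower. The median difference, knockout minus wild type, was 0.28 over the 10 genes and -0.05 over all 23185. The difference grew with signal in the upper part of the signal range, however. When all genes were ranked by mean signal into 10 parts of equal size, the median difference was 0.08 in part 8, 0.14 in part 9 and 0.27 in part 10, the brightest. In dimmer parts it did not grow steadily, at -0.046 in part 1, -0.12 in part 5 and 0.0046 in part 7. Part 10 held 7 of the 10 genes, of which 3 were called (42.9%), all of them higher. Of all 2319 genes in that part 45.7% were called, 34.5% higher and 11.1% lower. The count of members called was thus near that of equally bright genes, and nothing is read from the count itself. Separately, 5 members had knockout values all above wild type and 0 all below. Of all genes, 34.1% had groups that did not overlap, 17.2% with the knockout higher. That share was not computed for equally bright genes, and nothing is read from this count either. The single genes differ in how far they stood from their part, as the plot of differences with intervals shows.

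**Figure D1:**
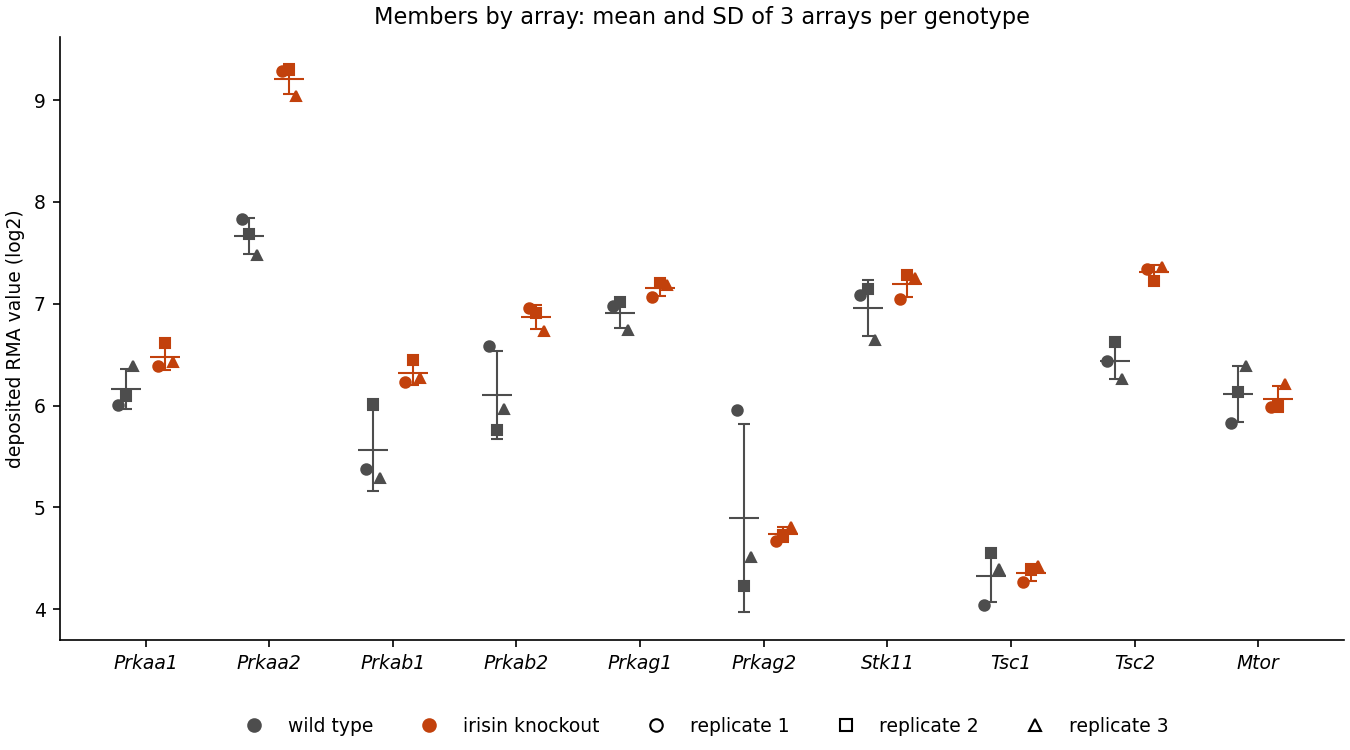
Deposited log2 values (y axis) of the 10 genes on each array, wild type in grey and irisin knockout in orange, with symbols for the replicate number and bars for the mean and SD of 3 arrays. Prkaa2 at 9.04 to 9.29 and Tsc2 at 7.23 to 7.37 in the knockout lie well above their wild type values, and wild type replicate 1 is far above the other wild type arrays for Prkag2. Signals of different genes are not comparable as amounts of RNA.

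Of the alpha subunit genes, which encode the kinase domain, Prkaa2 rose and Prkaa1 did not pass the test. Prkaa2 (Entrez gene 108079), encoding alpha2, read 7.83, 7.69 and 7.48 in wild type and 9.29, 9.29 and 9.04 in the knockout, in the order of the replicate numbers, as for all genes below. The groups did not overlap, and the lowest knockout value lay 1.20 above the highest wild type value, against ranges of 0.358 within wild type and 0.257 within knockout. The means were 7.67 ± 0.18 and 9.21 ± 0.15 (SD, n = 3), a 2.91-fold difference of 1.54 (SE 0.14, 95% interval 1.22 to 1.86; limma adjusted p = 0.000507). This difference was larger in size than that of 98.6% of all genes, and 1.54 compares with the median of 0.27 in its signal part. Without knockout replicate 1 it was 1.50 (limma adjusted p = 0.00506).

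Prkaa1 (Entrez gene 105787), encoding alpha1, the form common to most tissues, read 6.01, 6.10 and 6.39 in wild type and 6.39, 6.61 and 6.43 in the knockout. The groups touched, since wild type replicate 3 and knockout replicate 1 had the same value to 2 decimals. The difference of 0.31 (SE 0.14, 95% interval -0.01 to 0.63) did not pass the test (limma adjusted p = 0.181) and lay close to the median of its signal part. Whether the paralogues changed unequally was asked on each array by subtracting Prkaa1 from Prkaa2. That within-array difference was 1.83, 1.59 and 1.09 in wild type and 2.90, 2.69 and 2.61 in the knockout, with no overlap. It was 1.23 larger in the knockout, with p = 0.1 in a two-sided exact permutation test, the smallest that 3 arrays against 3 allow (0.2 adjusted over the 4 pairs compared). It ranged from 1.02 to 1.39 when any 1 array was left out.

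The promoter sequences of the alpha pair and of the beta pair are shown because these genes are the paralogues whose responses are set side by side here. Of the 300-base windows that RefSeq starts define in the mouse build GRCm38.p6, all 10 genes had at least 1. Printed are the bases before the start that lie in no annotated protein-coding gene, 5′ to 3′ on the gene's strand, with any motif match described below in capitals. The Prkab1 stretch ends 75 bases before the start, and that of Prkaa2 overlaps the non-coding gene Gm36893.

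Prkaa2, chr4:105109899-105110148, minus strand: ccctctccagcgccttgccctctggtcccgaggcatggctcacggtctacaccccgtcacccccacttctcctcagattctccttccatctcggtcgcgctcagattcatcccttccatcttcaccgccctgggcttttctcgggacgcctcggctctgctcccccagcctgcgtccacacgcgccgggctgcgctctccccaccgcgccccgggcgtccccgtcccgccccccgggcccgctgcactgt

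Prkaa1, chr15:5143611-5143860, plus strand: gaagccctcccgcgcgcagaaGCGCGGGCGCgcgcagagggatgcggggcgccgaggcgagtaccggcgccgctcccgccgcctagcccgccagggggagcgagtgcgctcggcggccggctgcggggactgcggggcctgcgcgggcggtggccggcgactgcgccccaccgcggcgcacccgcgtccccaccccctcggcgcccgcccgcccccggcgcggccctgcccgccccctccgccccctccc

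Prkab1, chr5:116024504-116024678, minus strand: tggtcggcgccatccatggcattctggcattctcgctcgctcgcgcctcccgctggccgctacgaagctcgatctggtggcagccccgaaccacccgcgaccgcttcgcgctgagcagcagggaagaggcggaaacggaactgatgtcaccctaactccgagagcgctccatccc

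Prkab2, chr3:97657962-97658210, plus strand: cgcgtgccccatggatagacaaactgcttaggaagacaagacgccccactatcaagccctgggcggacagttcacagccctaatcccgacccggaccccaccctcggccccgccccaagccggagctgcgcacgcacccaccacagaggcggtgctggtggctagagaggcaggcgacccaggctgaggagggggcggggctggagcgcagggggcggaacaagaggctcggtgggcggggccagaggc

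These stretches are 70.0% G and C for Prkaa2 and 85.2% for Prkaa1, with 24 and 45 CpG dinucleotides in 250 bases each. For Prkab1 and Prkab2 the G and C share was 65.7% of 175 bases and 69.5% of 249. Both strands of every full window were searched for 4 motifs, which do not contain one another: the E-box CACGTG, the cyclic AMP response element TGACGTCA, the nuclear receptor site AAGGTCA and the palindromic NRF1 site. Among all 32851 windows of that length, 7.15%, 1.79%, 4.72% and 6.23% held a match. The 10 genes gave 2 matches, an NRF1 site that begins 229 bases before the Prkaa1 start and AAGGTCA that begins 43 bases before 1 of the 3 Prkag2 starts. The windows of Prkaa2, Prkab1, Prkab2 and Tsc2 held none of these letters, which says nothing about factors that may bind there.

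Both beta scaffold genes were higher, but by less and with wider wild type spread. Prkab1 (Entrez gene 19079) encodes beta1, which carries the glycogen-binding module and tethers alpha to gamma. It read 5.38, 6.01 and 5.29 in wild type and 6.24, 6.44 and 6.27 in the knockout, with wild type replicate 2 only 0.221 below the lowest knockout array. The difference was 0.76, or 1.69-fold (SE 0.19, 95% interval 0.31 to 1.20; limma adjusted p = 0.0314). Prkab2 (Entrez gene 108097), encoding the beta2 form prominent in muscle, read 6.59, 5.76 and 5.97 in wild type and 6.96, 6.91 and 6.74 in the knockout. Here wild type replicate 1 was the high one, and the gap between the groups was 0.146. The difference was 0.76, or 1.70-fold (SE 0.21, 95% interval 0.29 to 1.24; limma adjusted p = 0.0373).

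The calls of the beta genes were the least firm of the 4. Each lost its call after quantile normalization (adjusted p = 0.0862 for Prkab1 and 0.0988 for Prkab2) and in 5 of the 6 limma fits that leave out 1 array. Prkab1 passed only without wild type replicate 2 (adjusted p = 0.00343) and Prkab2 only without wild type replicate 1 (0.00307), the array that was high for it; the other fits gave 0.0714 to 0.118 and 0.0762 to 0.122. Without both arrays numbered 1, Prkab1 also missed the threshold (limma adjusted p = 0.132), while Prkab2 passed (0.0162). The positive direction was kept in all of these fits. The within-array difference of Prkab2 and Prkab1 was 0.55 ± 0.74 in wild type and 0.56 ± 0.15 in the knockout (SD, n = 3). It moved by 0.01 between genotypes (exact permutation p = 1), with a sign that turned in several settings, so these arrays do not separate the responses of the beta genes.

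The gamma subunits, which bind AMP, ADP and ATP, showed no difference past the test. Prkag1 (Entrez gene 19082), encoding the widely expressed gamma1, read 6.97, 7.02 and 6.74 in wild type and 7.07, 7.20 and 7.19 in the knockout. All knockout values lay above all wild type values by only 0.0471. Its difference of 0.24 (95% interval -0.04 to 0.52, limma adjusted p = 0.243) was slightly under the 0.27 median of its signal part, and turned to -0.03 after cyclic loess normalization, which removes a dependence on signal. Prkag2 (Entrez gene 108099) encodes gamma2, known for mutations that cause a glycogen storage cardiomyopathy. It read 5.95, 4.22 and 4.51 in wild type and 4.67, 4.73 and 4.81 in the knockout. Wild type replicate 1 alone was above the knockout arrays, and the other wild type arrays were below them. The difference of -0.16 (95% interval -1.04 to 0.72, limma adjusted p = 0.833) became 0.37 without wild type replicate 1 (adjusted p = 0.123). The third gamma gene, Prkag3, is mainly a skeletal muscle form and read 2.72 ± 0.06 in wild type and 2.76 ± 0.16 in the knockout (SD, n = 3; limma adjusted p = 0.858).

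Stk11 (Entrez gene 20869), the LKB1 kinase that activates AMPK, read 7.09, 7.15 and 6.64 in wild type and 7.05, 7.28 and 7.25 in the knockout. The groups overlapped, and the difference of 0.23 (95% interval -0.13 to 0.60, limma adjusted p = 0.389) turned to -0.04 after cyclic loess normalization. LKB1 works in a complex with a STRAD pseudokinase and the MO25 scaffold, and 3 of the 4 genes measured for these partners passed. Of all genes in signal parts 9 and 10, where these partner genes lie, 25.5% and 34.5% were called higher. Strada rose 1.94-fold (difference 0.95, SE 0.15; limma adjusted p = 0.00363), from 5.12 to 5.29 on wild type arrays to 5.88 to 6.35 on knockout arrays. Cab39, encoding MO25, rose by 0.84 (SE 0.17) and Stradb by 0.87 (SE 0.21), while the other MO25 gene, Cab39l, had a difference of 0.61 with overlapping groups (limma adjusted p = 0.113). Camkk2, the calcium-dependent kinase that phosphorylates the same site of AMPK, fell by 0.95 (SE 0.13; limma adjusted p = 0.00235). Its means were 3.50 ± 0.17 in wild type and 2.54 ± 0.09 in the knockout (SD, n = 3), with no overlap. Camkk2 passed whichever array was dropped and after quantile normalization, at -0.92. Its knockout values lay not far above the array medians, and signal over background could not be judged. The folliculin partner Fnip1 (0.85), the sestrin genes Sesn1 (0.57) and Sesn3 (0.62) and the kinase gene Map3k7 (0.54) also rose. In this list, 7 of 15 measured genes upstream of AMPK rose, 1 fell and 7 did not pass. The median was 0.54, and the number that rose was 4 without wild type replicate 3 or knockout replicate 3. Without knockout replicate 2 it was 3, namely Strada, Fnip1 and Sesn1, so Cab39 was not called there. Of all genes tested 10.4% were called higher, and more among bright genes. Nothing is read from this count or from those of the lists below. Sesn1 lost its call after quantile normalization (adjusted p = 0.0582). Stradb, Sesn3 and Map3k7 were called in 1, 2 and 3 of the 6 fits without 1 array.

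**Figure D2:**
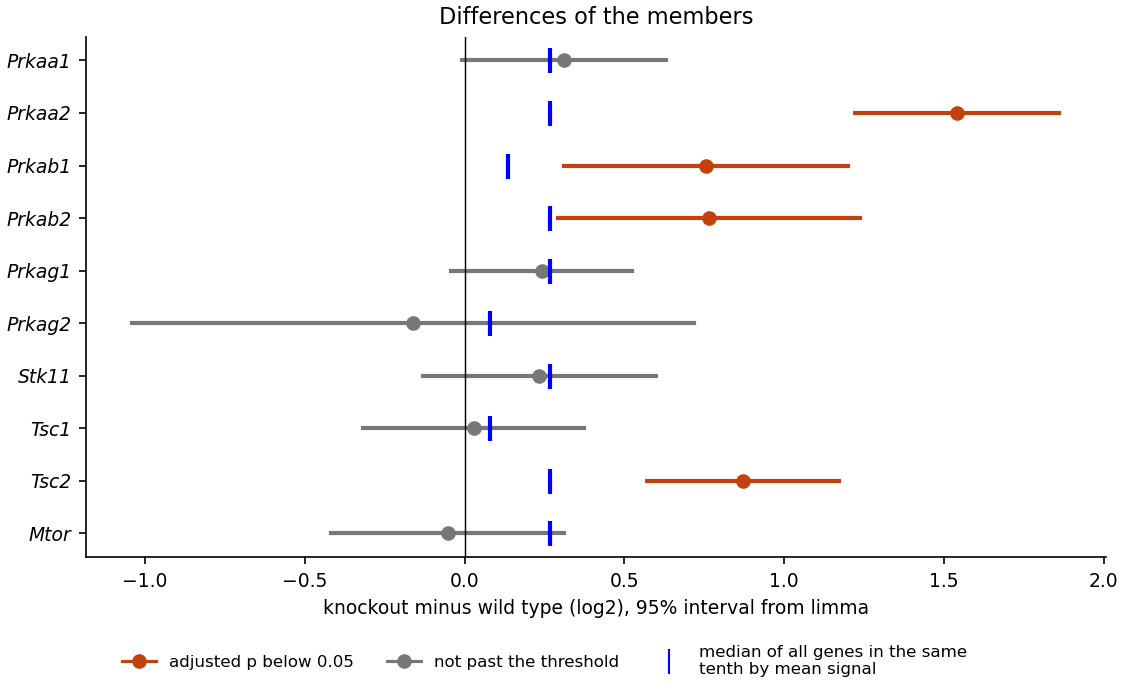
Knockout minus wild type difference (x axis, log2) of each of the 10 genes with its 95% interval from limma, orange where the adjusted p was below 0.05; blue ticks are the median difference of all genes in the same of the 10 signal parts. The interval of Prkaa2 (1.22 to 1.86) and that of Tsc2 (0.57 to 1.17) lie clear of the tick at 0.27, whereas the points of Prkaa1, Prkag1 and Stk11 lie beside it. The interval of Prkab2 (0.29 to 1.24) begins just above the same tick. That of Prkab1 (0.31 to 1.20) lies above its own tick at 0.14.

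In the TSC complex, Tsc2 and not Tsc1 passed the test. Tsc2 (Entrez gene 22084) encodes tuberin, the subunit with the GTPase-activating domain that acts on RHEB and that AMPK phosphorylates. It read 6.44, 6.63 and 6.26 in wild type and 7.34, 7.23 and 7.37 in the knockout. The groups did not overlap and were 0.602 apart at their nearest. The 1.83-fold difference of 0.87 (SE 0.13, 95% interval 0.57 to 1.17; limma adjusted p = 0.00341) kept its call in all 17 other settings run, with adjusted p from 0.00208 to 0.0303. Without knockout replicate 1 it was 0.86.

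Tsc1 (Entrez gene 64930), encoding hamartin, which stabilises tuberin, read 4.04, 4.55 and 4.40 in wild type and 4.26, 4.39 and 4.42 in the knockout. All knockout values lay inside the wild type range. Its difference was 0.03 (95% interval -0.32 to 0.37, limma adjusted p = 0.934) and turned sign in 5 of 17 settings. The within-array difference of Tsc2 and Tsc1 was 2.40, 2.07 and 1.86 in wild type and 3.08, 2.84 and 2.94 in the knockout, again without overlap. It was 0.84 larger in the knockout (exact permutation p = 0.1, 0.2 adjusted over the 4 pairs). The other subunit of the complex, Tbc1d7, rose 2.30-fold. It read 4.52, 4.35 and 3.82 in wild type and 5.51, 5.39 and 5.40 in the knockout, a difference of 1.20 (SE 0.18; limma adjusted p = 0.00341), called in all 6 fits without 1 array.

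The RefSeq starts of Tsc2 and of Nthl1, a DNA repair glycosylase gene on the other strand, lie 55 bases apart and point away from each other. Nthl1, named for its position after its values were seen, read 2.47, 2.60 and 2.84 in wild type and 2.11, 2.56 and 2.50 in the knockout. Its difference of -0.25 (SE 0.16; limma adjusted p = 0.365) did not pass, at a signal close to the array medians. Whether the responses of Tsc2 and Nthl1 differ was not tested.

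**Figure D3:**
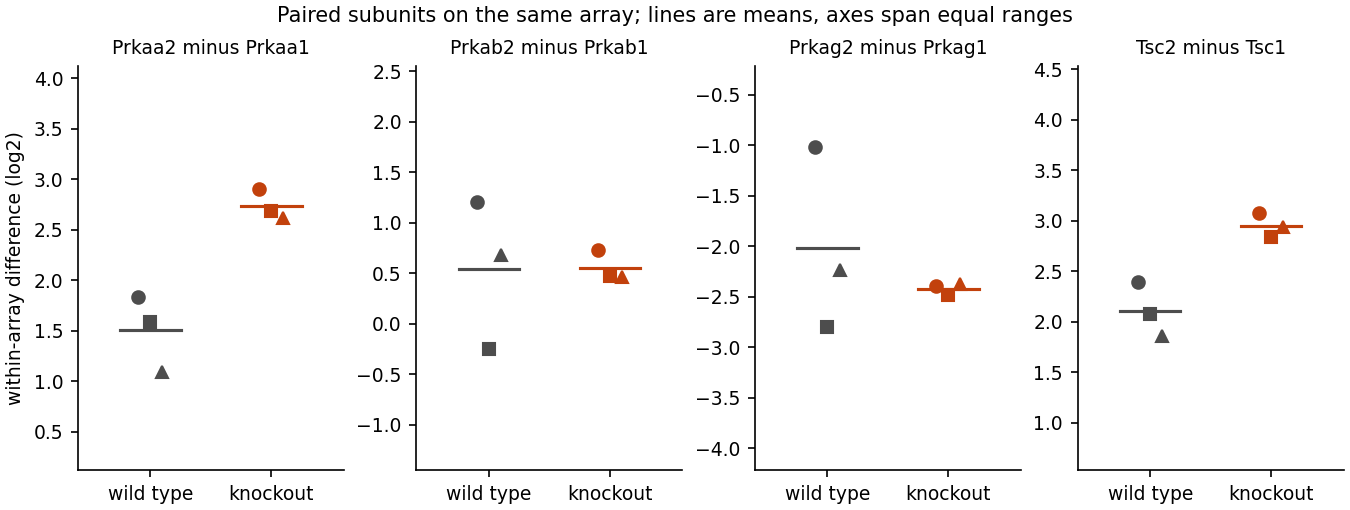
Within-array log2 difference (y axis) between paired subunits on the 3 wild type (grey) and 3 knockout (orange) arrays, with lines at the means and y axes of equal span. Only the change between genotypes is meaningful, since signals of different genes are not comparable: Prkaa2 minus Prkaa1 is 1.09 to 1.83 in wild type and 2.61 to 2.90 in the knockout, while the Prkab and Prkag pairs overlap.

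Mtor (Entrez gene 56717), the kinase common to mTOR complexes 1 and 2, read 5.83, 6.13 and 6.38 in wild type and 5.99, 6.00 and 6.21 in the knockout. All knockout values lay within the wild type range, and the difference of -0.05 had a 95% interval of -0.42 to 0.31 (limma adjusted p = 0.871). Its own sign turned with centring of the arrays (0.05) and without wild type replicate 3 (0.08). Of 11 genes of complex subunits and of the chaperone that assembles them, 1 rose, 0 fell and 10 did not pass, with a median of 0.23. The gene that rose was Tti1, of the TTT complex that stabilises mTOR and related kinases. It read 4.73, 4.48 and 4.47 in wild type and 6.12, 5.89 and 5.98 in the knockout, a 2.71-fold difference of 1.44 (SE 0.13; limma adjusted p = 0.000479). Its partners in that complex did not pass, Telo2 at -0.30 and Tti2 at -0.25, nor did Rptor (0.27) and Rictor (-0.08), which define complexes 1 and 2. Without wild type replicate 1 the number that rose was 2.

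At the lysosome, where Rag GTPases bring mTOR complex 1 to RHEB, 4 of 12 genes rose, 0 fell and 8 did not pass, with a median of 0.35. Rragd, encoding RagD, a Rag form under control of TFEB-family factors, had the largest difference of all pathway genes listed. It read 6.25, 5.73 and 5.09 in wild type and 7.31, 7.33 and 7.23 in the knockout. That is a 3.02-fold difference of 1.60 (SE 0.25; limma adjusted p = 0.00436), with a wild type range much wider than the knockout range. Rheb, the GTPase on which the TSC complex acts, rose 1.75-fold, from 6.07 to 6.58 on wild type arrays to 7.02 to 7.17 on knockout arrays (difference 0.81, SE 0.15; limma adjusted p = 0.00931). The arginine sensor gene Slc38a9 rose by 0.61 (SE 0.14) and Rraga by 0.51 (SE 0.12). Without knockout replicate 1 or 2, only 2 genes of this list rose, and Rraga did not pass without wild type replicate 3, without any 1 knockout array, or after quantile normalization (adjusted p = 0.071). Slc38a9 did not pass without knockout replicate 1 or 2. Among 14 genes of the GATOR and KICSTOR complexes and of amino acid sensors, Mios (0.52) and Nprl3 (0.58) rose, 0 fell and 12 did not pass. This count ran from 0 to 5 when any 1 array was left out, reaching 5 without wild type replicate 1, 1 when knockout replicate 3 was dropped and 0 when any other array was.

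**Figure D4:**
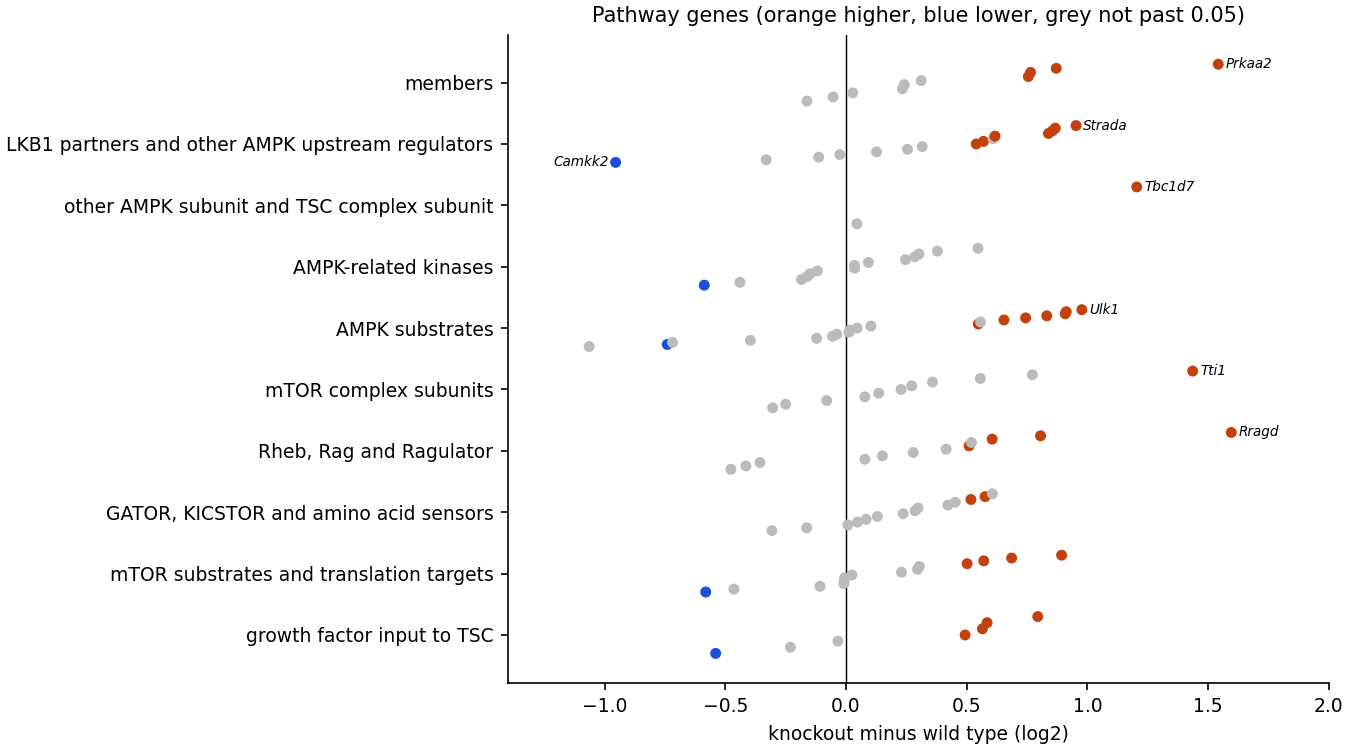
Knockout minus wild type difference (x axis, log2) of each gene of the pathway lists (rows), orange for higher and blue for lower at an adjusted p below 0.05 and grey otherwise, with names where a called difference exceeded 0.95. Rragd (1.60), Prkaa2 (1.54), Tti1 (1.44) and Tbc1d7 (1.20) lie farthest to the right, and Camkk2 at -0.95 farthest to the left among called genes.

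Among 19 genes of AMPK substrates and of genes set by AMPK signalling, 7 rose, 1 fell and 11 did not pass, with a median of 0.05. Ulk1, the kinase that starts autophagy and that AMPK and mTOR phosphorylate at different sites, rose 1.97-fold (difference 0.98, SE 0.12; limma adjusted p = 0.00137). It read 6.16 to 6.28 in wild type and 7.08 to 7.30 in the knockout. Atg9a, encoding the membrane carrier of autophagy, rose by 0.91 (SE 0.13), and Slc2a4, encoding the insulin-responsive glucose transporter GLUT4, by 0.74 (SE 0.14). Slc2a4 passed after quantile normalization (limma adjusted p = 0.0427) but not after cyclic loess normalization (0.0659). In the latter scaling 2 genes of this list rose and 3 fell. Txnip, an arrestin that promotes removal of glucose transporters, rose by 0.91 (SE 0.19) but did not pass without knockout replicate 2 (adjusted p = 0.0594) or 3 (0.0527). The gene that fell was Pfkfb2, encoding the heart form of the enzyme that makes an activator of glycolysis, by 0.74 (SE 0.16; limma adjusted p = 0.0169). It did not pass when any 1 of the knockout arrays was left out, and was -0.97 after quantile normalization. The acetyl-CoA carboxylase genes, whose products are classic AMPK substrates, did not pass, with Acacb at 0.02 and Acaca at -0.72 (limma adjusted p = 0.966 and 0.0504). Genes of this list that rose numbered 3 and those that fell 3 after quantile normalization, where Txnip no longer passed (adjusted p = 0.0699). The number that rose was 4, 3 and 4, in turn, without knockout replicate 1, 2 or 3, and the number that fell was 0 in each of these and 3 without wild type replicate 2. Among 14 kinases related to AMPK, Mark3 fell by 0.59 (SE 0.11; limma adjusted p = 0.00772), 0 rose and 13 did not pass.

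Downstream of mTOR, 4 of 14 genes rose and Sgk1, encoding a kinase that mTOR complex 2 activates, fell by 0.58 (SE 0.13). Pdcd4, an inhibitor of translation that S6 kinase marks for removal, rose by 0.89 (SE 0.18), the adaptor Grb10 by 0.69 (SE 0.14) and the initiation factor Eif4b by 0.57 (SE 0.13). The remaining gene that rose was Eif4e, by 0.50 (SE 0.14; limma adjusted p = 0.0394). It was called after quantile normalization (adjusted p = 0.0355) but in only 1 of the 6 fits without 1 array. The repressors of translation Eif4ebp1 (0.23) and Eif4ebp2 (-0.01) did not pass. The number that rose was 0 without knockout replicate 2, 2 without knockout replicate 3 or wild type replicate 3, and 2 after quantile normalization. Sgk1 was not called without knockout replicate 2 or 3. In that scaling Grb10 (adjusted p = 0.0501) and Eif4b (0.163) missed the threshold. Of 7 measured genes of the growth factor input to the TSC complex, Gsk3a (0.79), Pdpk1 (0.57), Gsk3b (0.58) and Akt2 (0.49) rose and Akt1 fell by 0.54 (SE 0.12). Gsk3a was called in all 6 fits without 1 array and in every scaling. The other 3 genes lost their calls after quantile normalization (adjusted p = 0.0546, 0.127 and 0.243). Only 1 gene of this list rose without wild type replicate 3 or any 1 knockout array. Akt1 was called in only 2 of the 6 fits without 1 array, missing without wild type replicate 2 or any 1 knockout array. After quantile normalization its difference was -0.76 (limma adjusted p = 0.00436).

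Over all pathway lists, with each gene counted once and the 10 members left aside, 30 of 108 genes rose and 5 fell. In the 3 brightest of the 10 signal parts, 31 of 81 of these genes were called, or 38.3%, against 38.2% of all genes there. By direction the shares were 34.6% higher and 3.7% lower for the pathway genes, and 26.9% and 11.3% for all genes of those parts. Without knockout replicate 2 the number that rose was 11, without knockout replicate 1 it was 18, and it was 17 without knockout replicate 3, without wild type replicate 3 and after quantile normalization. Dropping knockout replicate 1 left 3 that fell, dropping knockout replicate 2 or 3 left 2, and quantile normalization gave 9.

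The spread among arrays was itself uneven between genotypes. All 10 members had a larger SD on the wild type arrays than on the knockout arrays, compared with 77.1% of genes in the brightest part and 62.9% of all genes. The largest wild type SD was that of Prkag2 (0.93, against 0.07 in the knockout). Replicate 1 was the highest wild type array for Prkaa2, Prkab2 and Prkag2 and the lowest for Prkaa1, Tsc1 and Mtor.

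The members that rose had close companions in the rest of the table, described here by Pearson r over the 6 arrays and 10924 genes of above-median signal. The 6 points fall into 2 genotype groups and share the same arrays, so a high r is a description only. Prkaa2 ran closest to Trim72, a membrane repair protein of muscle, Pdk2, a pyruvate dehydrogenase kinase, and the ubiquitin ligase gene Ube4b, each at r = 0.999. Of these, Pdk2 rose by 1.38 and Trim72 by 0.93. Tsc2 ran closest to the lipoprotein receptor gene Vldlr (0.998), Tcta (0.997) and Cln6 (0.996), a lysosomal storage disease gene that rose by 1.45. Prkab1 ran closest to Perm1 (0.998), a muscle regulator of oxidative genes, Stard7 (0.996) and Abcb10 (0.993). Stard7 and Abcb10 did not pass (limma adjusted p = 0.152 and 0.0569). Prkab2 ran closest to Gpr158, Seh1l and Otub1, each at 0.997. The mean of Gpr158 was 1.86 in wild type, below the array medians, and 3.71 in the knockout. It thus counted as above-median only through the knockout arrays. Seh1l and Otub1 did not pass (limma adjusted p = 0.0568 and 0.0754). Among the members themselves, the highest r over the 6 arrays was 0.964 for Prkaa2 and Tsc2. With the mean of each genotype subtracted, r was 0.253 for that pair and was highest for Prkag1 and Stk11, at 0.998.

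**Figure D5:**
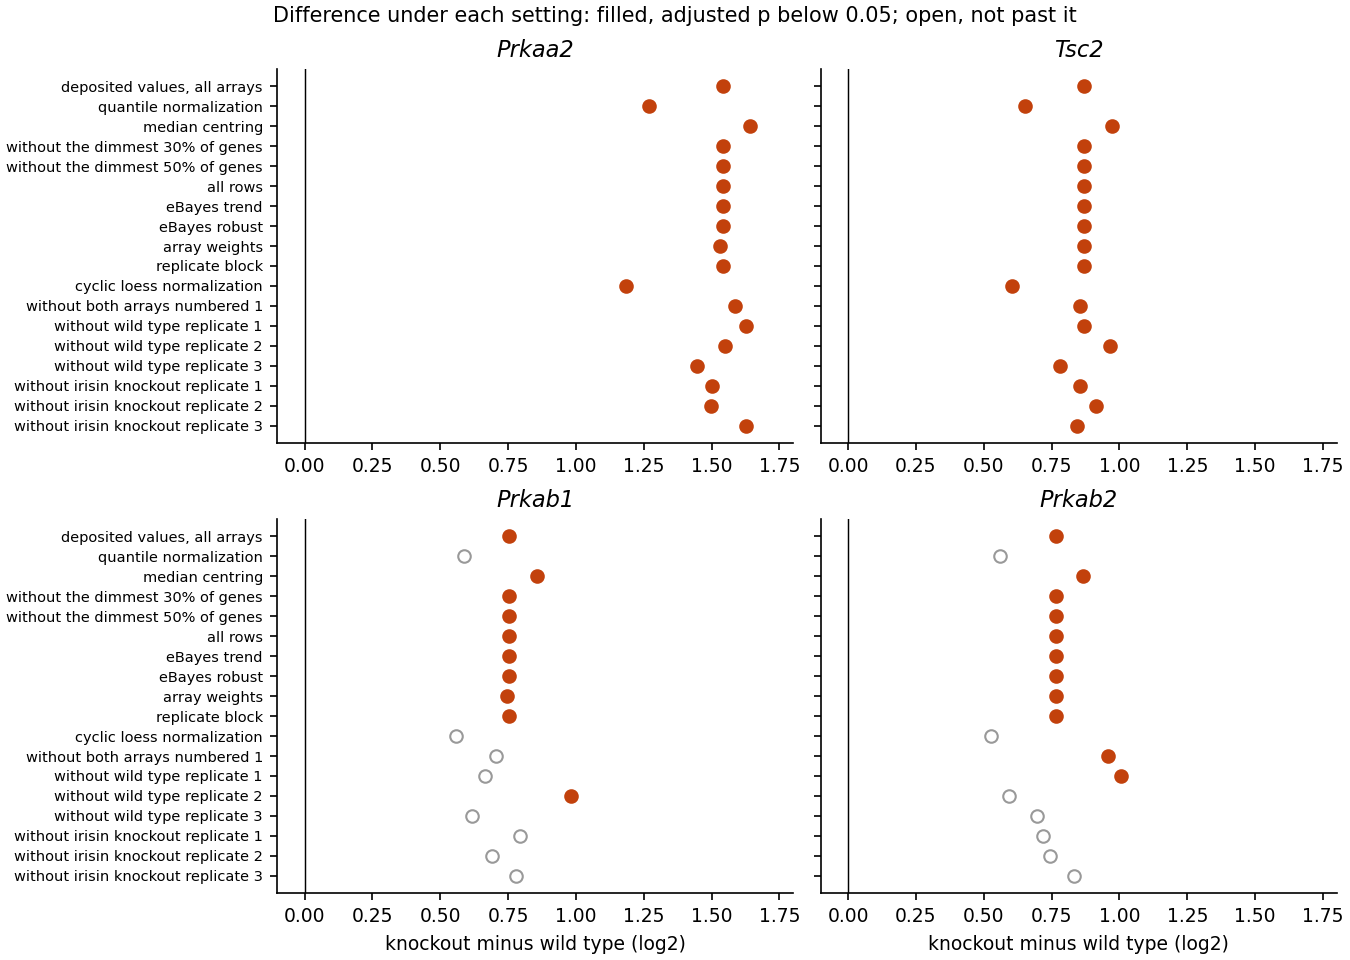
Knockout minus wild type difference (x axis, log2) of the 4 genes that rose, under the deposited values and each other setting (rows), filled where the adjusted p was below 0.05. Prkaa2 (1.18 to 1.64) and Tsc2 (0.61 to 0.97) are filled in every row, whereas Prkab1 and Prkab2 are open after quantile and cyclic loess normalization and in 5 of the 6 rows that leave out 1 array. Prkab1, but not Prkab2, is also open without both arrays numbered 1.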

How the data were processed

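The deposited table holds 25206 rows of log2 values for 6 arrays, made by the authors with RMA; the submitters' processing notes name affy 1.61.0 and R 3.6.0. The log2 scale was inferred from the range of 0.0929 to 12.96. The background steps, probe set definition and genome build are not known here. The platform annotation named 23185 rows with 1 symbol, 0 with several and 2021 with none, and these last stayed out. No detection calls were used, so dim values may be background. Groups came from sample titles.

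All genes were fitted with lmFit and eBayes of limma 3.58.1 in R 4.3.3, genotype as the only term, two-sided, Benjamini-Hochberg over 23185 genes, threshold 0.05, with no filter. Paired subunits were compared by exact permutation of within-array differences. The code was tested on simulated data. Of 67 genes changed by 0.5 on the log2 scale it recovered 3, of 67 changed by 1 it recovered 40, and of 66 changed by 2 it recovered 60. Far fewer genes were changed there than were called here, so these shares do not carry over directly. A gene that did not pass is not shown to be unchanged.

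The members and lists were chosen with earlier results of these data known. Named are the members, Fndc5, up to 4 genes of each list, those of lowest p among the genes called (if 0 were called, the 2 of lowest p), and the 3 genes with the highest r with each called member; other genes were named after their values were seen. Of 118 listed pathway genes 10 had no row under their symbol and were not analysed here. Plots used matplotlib 3.10.9 in Python 3.11.15. Alternatives were other scalings, filters, variance models, array weights, a replicate block and leaving out arrays. Cyclic loess normalization and leaving out both arrays numbered 1 were added after seeing the data.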

Additional observations from a re-analysis of the deposited data

How the results depend on the processing

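Prkaa2 and Tsc2 kept their direction and their call in all 17 other settings. The number of members called was 4 with the deposited values and 2 after quantile normalization, after cyclic loess normalization and at an adjusted p below 0.01, and 2 to 3 when any 1 array was left out. The number of genes called was 3848, against 1784 at 0.01 and 2104 (without knockout replicate 2) to 4163 (without wild type replicate 1) when any 1 array was left out; without knockout replicate 1 it was 2274. The cause of these changes was not tested, although fewer arrays were fitted when any was left out. The split of genes called higher and lower was 2416 and 1432, against 3090 and 1008 after centring and 1839 and 1669 after cyclic loess. Centring moved the median of all genes from -0.05 to 0.06. The members' median of 0.28 became 0.06 after quantile normalization, 0.38 after centring and 0.03 after cyclic loess. Signs turned only for members that had not passed: Prkag1 to -0.034 and Stk11 to -0.044 after cyclic loess, Tsc1 to -0.047 after quantile normalization, -0.040 after cyclic loess, -0.069 without both arrays numbered 1 and -0.12 to 0.14 with any 1 array left out (-0.00456 without knockout replicate 3), Prkag2 to 0.40 without both arrays numbered 1 and -0.50 to 0.37 with any 1 array left out (0.37 without wild type replicate 1), and Mtor to 0.047 after centring and -0.20 to 0.081 with any 1 array left out (0.081 without wild type replicate 3). The change of Prkab2 minus Prkab1 was -0.026 after quantile and -0.032 after cyclic loess normalization and -0.39 to 0.34 with any 1 array left out (-0.08 without knockout replicate 1), and that of Prkag2 minus Prkag1 was -0.79 to 0.10. The replicate numbers were not shown to pair the arrays, since same-numbered arrays deviated together with correlations of only 0.0896, 0.0478 and 0.07. With the replicate block 4 members and 3577 genes were called. Signal over background could not be judged, and a dim gene's difference may be understated.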
